A study of Mus musculus with 6 samples.

Results

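The 37 genes of the mouse mitochondrial genome (mtDNA) were examined in frontal cortex RNA. They were chosen as all rows of the count table whose chromosome is chrM, 37 of 33000 genes, and comprised 13 mRNA genes, 2 rRNA genes and 22 tRNA genes. TruSeq mRNA libraries are made from polyadenylated RNA and cover transcripts along their length. They had been sequenced from 3 wild-type (WT) C57BL/6 mice and 3 homozygous GFAP-IL6 mice, all 3 months old. The paper names a strain for the WT mice only. In GFAP-IL6 mice the promoter of the astrocyte gene Gfap drives a transgene for IL6, an inflammatory cytokine, and the RNA came from all cells of the dissected cortex. In such bulk RNA, fewer cells of a type and less RNA per cell cannot be told apart. Each library came from a different mouse.

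The mitochondrial genome is a small circle that is transcribed from both strands into long precursors, and tRNAs lie between most of its mRNAs and rRNAs and are cut out of them. Its mRNAs encode core subunits of the respiratory chain complexes I, III and IV and of the ATP synthase (complex V), while all other subunits, the proteins of the mitochondrial ribosome and the whole transcription machinery are encoded in the nucleus. Neurons depend on this system for most of their ATP, and pieces of mtDNA have been copied into nuclear chromosomes in the course of evolution, where they remain as pseudogenes.

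Of the 13 mRNA genes, 3 had 0 counts in every library, namely mt-Co2 (a core subunit of complex IV), mt-Atp8 (a subunit of the ATP synthase) and mt-Nd4l (a subunit of complex I). mt-Atp6, the membrane subunit of the ATP synthase that conducts protons, had 1 count in WT 2 and 0 in the other libraries. mt-Co3, the third mtDNA-encoded subunit of complex IV, had 1 count in WT 2, 1 in WT 3 and 0 in the other libraries. A count of 0 allows a level of up to 3 counts, or between 0.178 and 0.397 CPM depending on the library, where CPM are counts divided by the library size in M (mega), and this limit covers counting error only. Each other mRNA of the genome except mt-Nd3 had over 10000 counts in every library. The plot of levels in genome order shows that the low genes are neighbours.

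**Figure D1:**
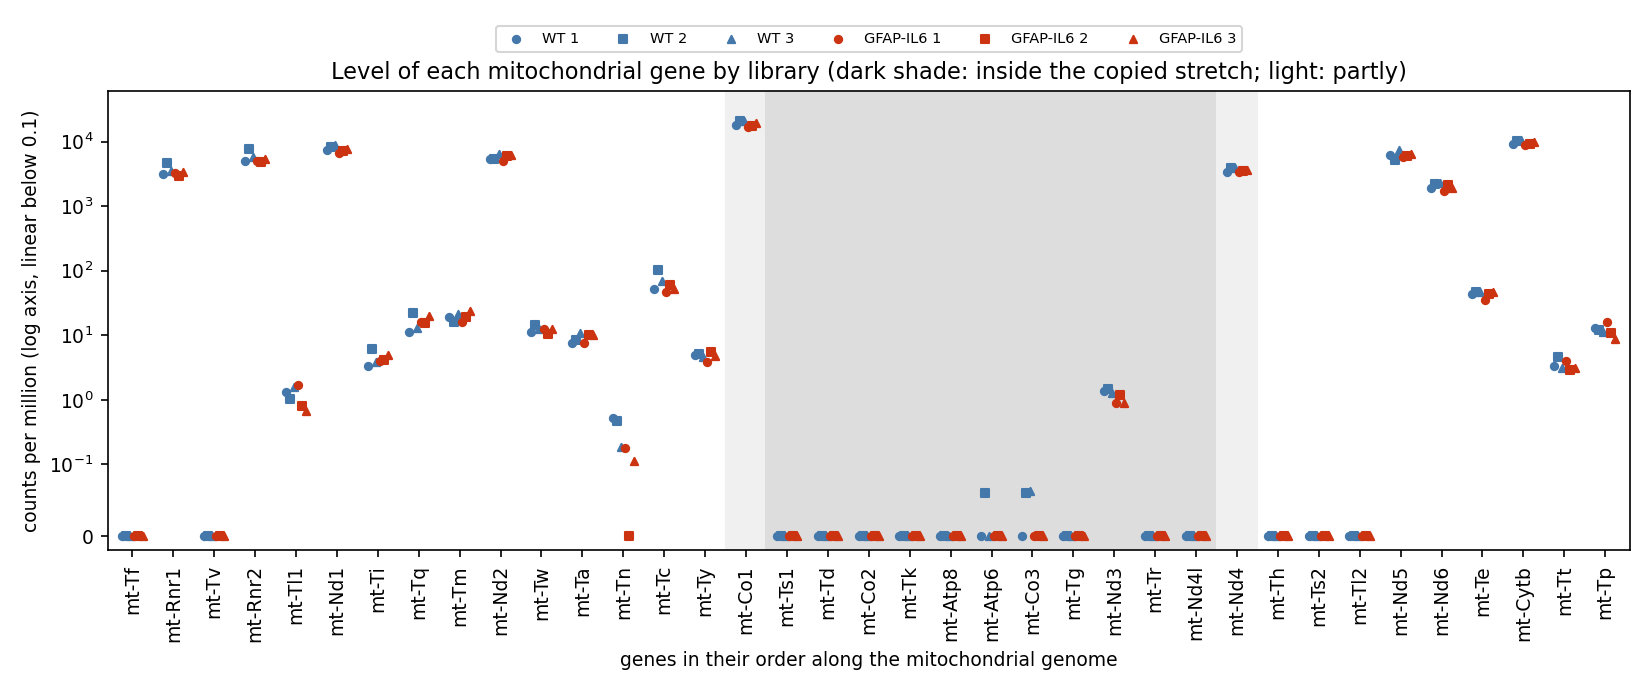
Level of each of the 37 mitochondrial genes in CPM (vertical axis, logarithmic above 0.1) in genome order, with a point for each library (blue for WT, red for GFAP-IL6). The shaded genes lie wholly (dark) or partly (light) in the stretch with a near-identical copy on chromosome 1, and apart from mt-Nd3 with 8 to 25 counts, no gene in the dark shade has more than 1 count in any library.

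All of these genes lie in 1 stretch, chrM:6381-11042 (GRCm38), to which 7 unprocessed pseudogenes on chromosome 1 correspond in GENCODE M21. The pseudogenes span chr1:24611535-24616197 on the minus strand and have the order of the mitochondrial genes. Gm28661 matched mt-Co2 over 681 bases with 0 mismatches, Gm10925 matched mt-Atp6 over 678 bases with 0, and Gm28437 matched mt-Co3 over 783 bases with 0. These 3 matches covered 99.6%, 99.6% and 99.9% of the mitochondrial gene. Gm10222 matched mt-Nd4l over 294 bases with 0 mismatches, and Gm28439 matched the first 876 bases of mt-Nd4, or 63.6% of the gene, with 0. Gm28438 matched mt-Nd3 over 345 bases with 1 mismatch, and Gm29216 matched the last 492 bases of mt-Co1, or 31.8% of the gene, with 6. Over the 4149 bases aligned, 99.8% were identical. No pseudogene of mt-Atp8 was annotated there, but the distance between Gm28661 and Gm10925, where mt-Atp8 would lie, was 233 bases on both chromosomes.

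All 7 mismatches fell into the first 30 bases of a match. The local alignments had been extended without gaps as far as both sequences reach, so mismatches at an end are included. Whether the bases that differ at the start of Gm29216 belong to the copy or to sequence next to it was not tested. Both windows are shown because they are the only places in the aligned genes where the sequence tells the mitochondrial gene from its copy. Capitals mark the bases that differ, and the sequences are those of the GENCODE M21 transcripts in the direction of the gene. The window of mt-Nd3 is the start of the gene (bases 1 to 30, chrM:9459-9488, plus strand) beside chr1:24613090-24613119 (minus strand), with the difference T3C counted from 1 at the 5′ end of mt-Nd3 and written with the mitochondrial base first.
mt-Nd3: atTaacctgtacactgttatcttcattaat
Gm28438: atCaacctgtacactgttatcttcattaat
The window of mt-Co1 is bases 1054 to 1083 of that gene (chrM:6381-6410, plus strand) beside chr1:24616168-24616197 (minus strand), with the differences T1056A, C1057T, A1059G, A1060G, C1062A and A1066T counted in the same way.
mt-Co1: ggTCtAAcCggaAttgttttatccaactca
Gm29216: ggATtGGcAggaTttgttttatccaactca

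The share of each gene that can be told from other annotated transcripts was measured in runs of 50 bases. All runs of mt-Co2 (100%) occurred in a transcript of another chromosome. The same held for 99.9% of the runs of mt-Co3, 99.5% of mt-Atp6, 98.8% of mt-Nd4l and 98.0% of mt-Nd3. The share was 62.2% for mt-Nd4, 51.1% for mt-Co1, 8.19% for mt-Nd2, 7.61% for mt-Nd5 and 1.04% for mt-Rnr2, and 0 for mt-Rnr1, mt-Nd1, mt-Nd6, mt-Cytb and mt-Atp8. Only annotated transcripts were searched, so a copy that is not annotated, such as one of mt-Atp8, would not be seen. A read that lies wholly in an identical stretch has more than 1 best position in the genome. The study states for its other library protocol that uniquely aligned reads were counted, and does not state it separately for the TruSeq libraries. None of the 7 pseudogenes on chromosome 1 had a row in the count table. Of all 15 genes off chrM with a matching run, 2 had a row, Gm20594 with at most 1 count in any library and Gm4076 with at most 6.

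The counts of the rows wholly inside the stretch, 11 genes, were 16, 27 and 21 in WT 1, 2 and 3 and 10, 9 and 8 in GFAP-IL6 1, 2 and 3, which was between 0.00140% and 0.00237% of the counts on chrM. Almost all of these counts were of mt-Nd3, a subunit of complex I, with 16, 25 and 20 for WT against 10, 9 and 8 for GFAP-IL6. The mitochondrial shares and sums given here therefore hold almost no counts of these 6 mRNAs, in either group. Whether the low counts come from the matching copy was not tested.

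The libraries held 7559524 to 16877001 counts, and each GFAP-IL6 library was smaller than each WT library. Of 33000 genes, 15341 passed the filter on low counts and were tested with edgeR, and 439 (2.86%) were called at an adjusted p under 0.05, 407 (2.65%) as higher in GFAP-IL6 and 32 (0.209%) as lower. As a check of the labels, Gfap had 878 to 2059 counts in WT against 4889 to 7795 in GFAP-IL6, and Il6 had 0 to 2 against 10 to 24. Their log2 fold changes were 2.84 ± 0.20 and 4.92 ± 0.74 (SE; edgeR adjusted p = 5.49e-06 and 0.00208). Marker genes of neurons, astrocytes and oligodendrocytes were found in every library. Of 3 markers of liver or muscle (Alb, Myh7 and Ckm) only Alb was at 0. Together these 3 summed to 11.7 to 13.6 CPM in WT and 10.5 to 12.2 CPM in GFAP-IL6. The summed level of 5 microglial markers was 243 to 288 CPM in WT and 451 to 534 CPM in GFAP-IL6. Of these, 4 were called higher, and P2ry12 was not called, with a log2 fold change of -0.27 ± 0.14. The summed level of 5 endothelial markers was 152 to 168 CPM in WT and 236 to 265 CPM in GFAP-IL6, with 4 called higher. The choroid plexus markers summed to 606 CPM in WT 3 and to 3.22 to 59.0 CPM elsewhere, and the striatal markers to 284 CPM in WT 2 and 131 to 171 CPM elsewhere.

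The share of all counts that fell on chrM was examined first. It was 5.90%, 6.75% and 6.94% in WT 1, 2 and 3, and 5.74%, 5.90% and 6.46% in GFAP-IL6 1, 2 and 3. GFAP-IL6 3 lay between the lowest and the highest WT library, and the groups overlapped. GFAP-IL6 2 was level with WT 1, the lowest WT library (5.8983% against 5.8979%). The mean share (± SD, n = 3) was 6.53% ± 0.554 for WT and 6.03% ± 0.379 for GFAP-IL6, a difference of -0.496 percentage points (exact permutation test, two-sided p = 0.3), where 3 against 3 libraries allow no p below 0.1. Counting error was small against this spread, since the 95% Wilson interval of WT 1 ran from 5.88% to 5.91% and the intervals of the other libraries were of like width. The WT library with the highest share, WT 3, was the one with the choroid plexus markers, and the difference was -0.292 points without it and -0.811 points without WT 1. The part of those markers in the share was not tested further.

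**Figure D2:**
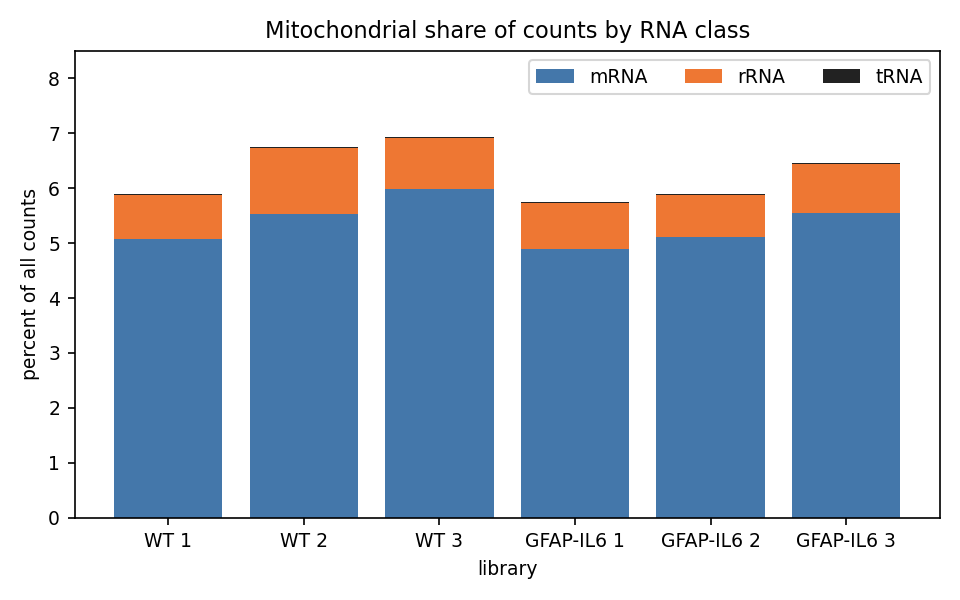
Percent of all counts of a library that fell on mitochondrial mRNA, rRNA and tRNA genes (stacked bars, 1 per library). The bars reach 5.90% to 6.94% in WT and 5.74% to 6.46% in GFAP-IL6, and mRNA makes up most of each bar.

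In these libraries of polyadenylated RNA, mRNAs made up 81.7% to 86.5% of the mitochondrial counts, rRNAs 13.2% to 17.9% and tRNAs 0.283% to 0.353%. Of all counts, the mRNA genes took 5.08%, 5.52% and 5.99% in the WT libraries against 4.90%, 5.10% and 5.56% in those of GFAP-IL6 (exact permutation p of 0.5). In every library, mt-Co1 had the highest count of all genes in the table. Of the 10 genes with the highest counts, 6 were mitochondrial in 5 of the libraries, and 8 in WT 2.

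Levels in CPM per kb of gene are corrected for gene length only. In libraries of polyadenylated RNA, RNAs that differ in their tails, such as rRNAs and mRNAs, may be recovered unequally, which was not tested. On this scale mt-Co1 stood first at 12199 ± 1099 (SD, n = 6 libraries), and its lowest library was above the highest of any other mitochondrial gene. mt-Cytb and mt-Nd1 followed at 8418 ± 617 and 8003 ± 830, with overlapping ranges and mt-Cytb higher in 5 of 6 libraries. mt-Nd2 came next at 5516 ± 560, apart from its neighbours on both sides. Below it the ranges of mt-Nd6 at 3906 ± 443, mt-Rnr1 at 3634 ± 620, mt-Rnr2 at 3538 ± 654 and mt-Nd5 at 3370 ± 406 overlapped. The level of mt-Nd4 was the lowest of these 9 genes, at 2629 ± 175 CPM per kb and below mt-Nd5 in 5 of 6 libraries. The order depended on the length used, since most of mt-Nd4 and much of mt-Co1 has a match elsewhere. Per 1000 runs of 50 bases that occur in no transcript of another chromosome, mt-Co1 had 25783 ± 2322 CPM and mt-Nd4 had 7217 ± 480. This placed mt-Nd4 above mt-Nd2 at 6306 ± 641 in all 6 libraries. The value of mt-Co1 depends on the run length, since 64.8% of its runs had a match at 30 bases and 39.8% at 75. For mt-Nd4 these shares were 62.8% and 61.5%. Levels were computed for runs of 50 bases only.

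None of the mitochondrial genes was called between GFAP-IL6 and WT by edgeR. Of the 37 genes, 21 passed the filter on low counts (8 mRNAs, both rRNAs and 11 tRNAs), and 0 had an adjusted p under 0.05, where 2.86% of all tested genes did. At an unadjusted p under 0.05 there was 1 of 21, mt-Tc, where 20.5% of all tested genes passed. DESeq2 also called 0, beside 2.27% of all genes it tested. At an unadjusted p under 0.05 it had 3 of 24 mitochondrial genes, near its share of 10.8% over all genes. The fitted log2 fold change was below 0 for 17 of the 21, with a median of -0.12, beside a median of -0.0038 and a share below 0 of 50.6% over all tested genes. Scaled to the chrM total, which moved the median of all genes to 0.13, the median of the 21 was 0.024. The groups did not overlap in CPM for 1 of 21, mt-Nd3, where 26.5% of all tested genes did not overlap. Without WT 1, mt-Tc and the rRNA mt-Rnr2 were called lower (edgeR adjusted p = 0.0158 and 0.0469), beside 2.38% of all tested genes. Without any other library no mitochondrial gene was called.

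**Figure D3:**
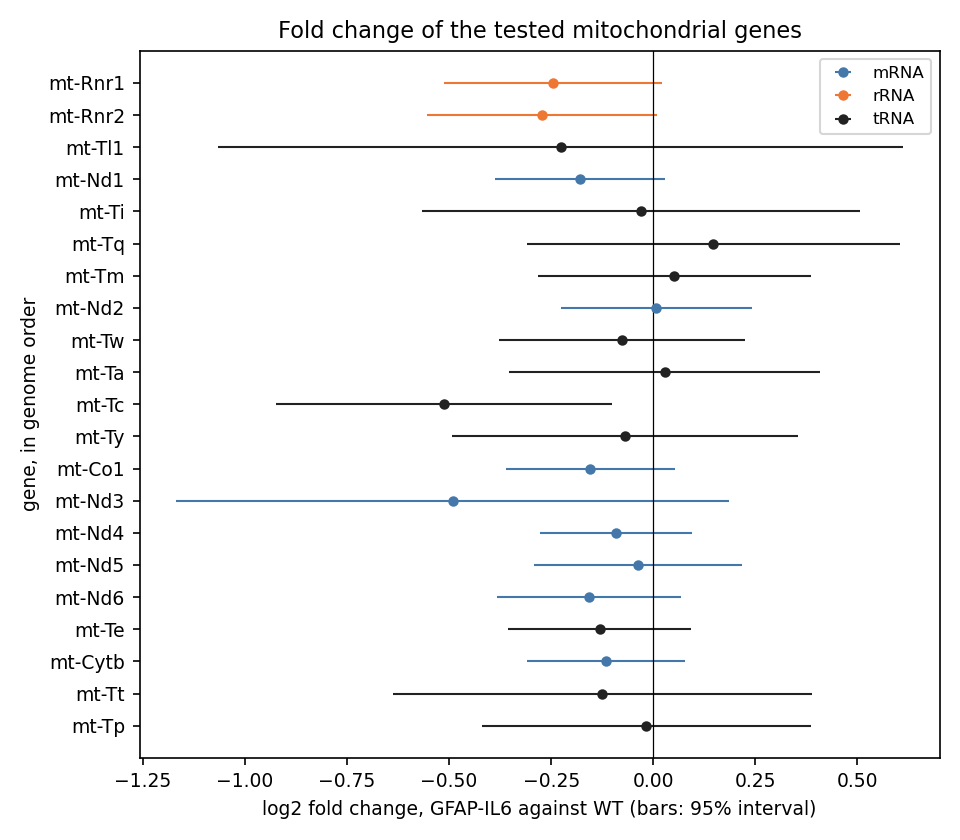
Log2 fold change in GFAP-IL6 against WT (horizontal axis) of the 21 mitochondrial genes that passed the low-count filter, with 95% intervals from edgeR. The interval of mt-Tc, from -0.92 to -0.10, is the only one that leaves out 0, and those of the mRNAs other than mt-Nd3 lie between -0.39 and 0.24.

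mt-Co1 encodes the catalytic subunit of complex IV. Its level was 17924, 20613 and 21031 CPM in WT 1, 2 and 3, and 17152, 17204 and 19157 CPM in GFAP-IL6 1, 2 and 3. The highest GFAP-IL6 library was above the lowest WT library, and the other GFAP-IL6 libraries were below all WT libraries. The log2 fold change was -0.15 ± 0.10 (SE), with a 95% interval from -0.36 to 0.05 (edgeR adjusted p = 0.374).

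mt-Cytb, the mtDNA-encoded cytochrome b of complex III, had 9245, 10136 and 10668 CPM in WT and 8828, 9064 and 9843 CPM in GFAP-IL6. Here too only GFAP-IL6 3 reached into the range of WT. The log2 fold change was -0.12 ± 0.09 (95% interval from -0.31 to 0.08).

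Complex I, the entry point of electrons from NADH, takes 7 of its subunits from mtDNA, of which mt-Nd1, mt-Nd2, mt-Nd4, mt-Nd5 and mt-Nd6 were well covered. mt-Nd1, which lies where the membrane arm meets the peripheral arm, had 7326, 8133 and 8948 CPM in WT and 6689, 7193 and 7666 CPM in GFAP-IL6, so that GFAP-IL6 3 overlapped with WT. Its log2 fold change was -0.18 ± 0.10 (95% interval from -0.39 to 0.03). mt-Nd2, mt-Nd4 and mt-Nd5 encode the proton-pumping, antiporter-like subunits of the membrane arm. mt-Nd2 had 5300, 5395 and 6434 CPM in WT and 5002, 5917 and 6307 CPM in GFAP-IL6, with a log2 fold change of 0.0079 ± 0.11, the only one of the 8 tested mRNAs that was above 0. mt-Nd4 had 3390, 3913 and 3909 CPM in WT and 3419, 3457 and 3651 CPM in GFAP-IL6, with a log2 fold change of -0.09 ± 0.09. All GFAP-IL6 libraries of mt-Nd4 lay inside the range of WT. mt-Nd5 had 6170, 5138 and 7369 CPM in WT and 5820, 5952 and 6435 CPM in GFAP-IL6. The WT libraries of mt-Nd5 were thus spread around those of GFAP-IL6, with a coefficient of variation of 17.9% against 5.34%, and the log2 fold change was -0.04 ± 0.12.

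The lowest adjusted p among the complex I genes was that of mt-Nd1, at 0.310 by edgeR. mt-Nd3, at the lower edge of detection, was 1.39, 1.49 and 1.26 CPM in WT and 0.896, 1.19 and 0.893 CPM in GFAP-IL6. Its groups did not overlap, but its log2 fold change of -0.49 ± 0.31 was not called (95% interval from -1.17 to 0.19, edgeR adjusted p = 0.388). The smallest count of this gene, 8, has a counting error of 35.4%, against 17.1% variation between the GFAP-IL6 libraries.

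mt-Nd6, the complex I subunit encoded on the other strand, is the only mRNA of the light-strand transcript. Its level was 1896, 2244 and 2272 CPM in WT and 1698, 2153 and 1900 CPM in GFAP-IL6, with overlapping groups and a log2 fold change of -0.16 ± 0.10 (95% interval from -0.38 to 0.07). The balance of the strands was measured as mt-Nd6 counts for every 100 counts of the 12 heavy-strand mRNAs. It was 3.84, 4.21 and 3.89 in WT and 3.62, 4.41 and 3.58 in GFAP-IL6. GFAP-IL6 2 was the highest of all and the other GFAP-IL6 libraries the lowest. The means were 3.98 ± 0.198 and 3.87 ± 0.470 (SD, n = 3 each, exact permutation p of 0.6). The sign of the difference turned when WT 2, GFAP-IL6 1 or GFAP-IL6 3 was left out. mt-Nd6 overlaps mt-Nd5 by 14 bases on the opposite strand, and the study does not say if counting took account of read strand, so reads from a gene and its antisense transcripts cannot be told apart here.

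The rRNAs of the small and the large mitochondrial ribosomal subunit, mt-Rnr1 and mt-Rnr2, lie next to each other at the start of the heavy-strand transcript. mt-Rnr1 had 3149, 4616 and 3532 CPM in WT and 3212, 2967 and 3347 CPM in GFAP-IL6. mt-Rnr2 had 4973, 7560 and 5844 CPM in WT and 4998, 4791 and 5421 CPM in GFAP-IL6. For both genes WT 2 was far above the other 5 libraries, among which the groups overlapped. The log2 fold changes were -0.25 ± 0.12 for mt-Rnr1 and -0.27 ± 0.13 for mt-Rnr2 (edgeR adjusted p = 0.279 and 0.256), and without WT 2 they were -0.07 and -0.09.

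The counts of mt-Rnr2 and mt-Rnr1 kept a ratio between 1.56 and 1.65 in all 6 libraries. Their joint share of the mitochondrial counts was 13.6%, 17.9% and 13.4% in WT and 14.4%, 13.2% and 13.7% in GFAP-IL6. WT 2 was the highest, and the means of 15.0% ± 2.55 and 13.8% ± 0.618 (SD, n = 3 each) differed by -1.20 points (exact permutation p of 0.7). Without WT 2 the difference was 0.270 points, with the opposite sign.

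**Figure D4:**
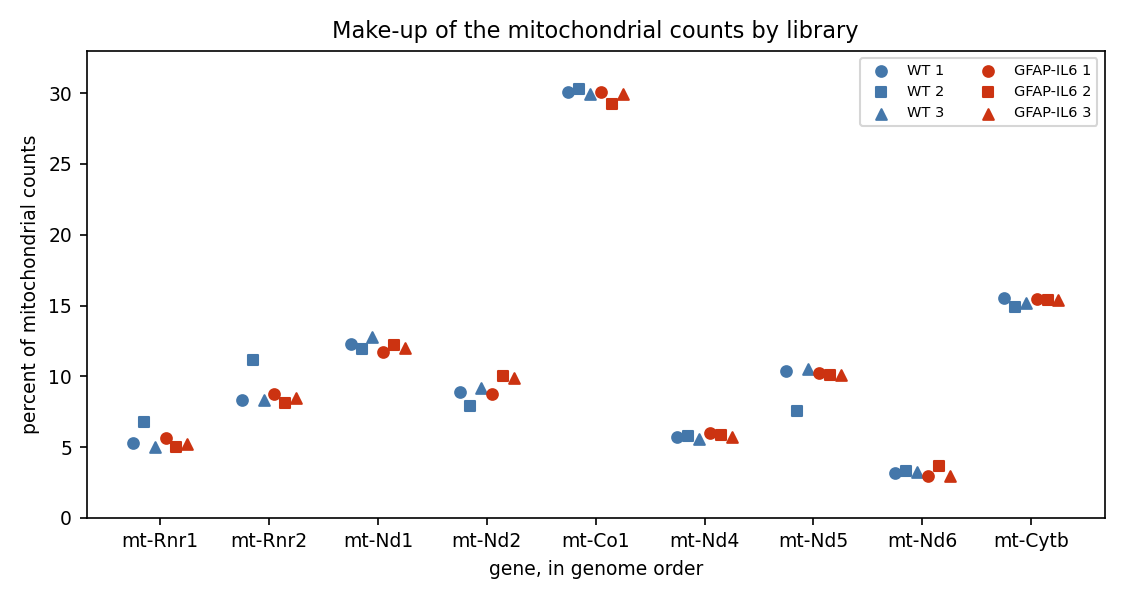
Percent of the mitochondrial counts taken by each of the 9 genes with over 10000 counts in every library (points, 1 per library, blue for WT and red for GFAP-IL6). WT 2, the blue square, lies above the other libraries for mt-Rnr1 and mt-Rnr2 and below them for mt-Nd5.

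The make-up of the mitochondrial counts was otherwise alike across libraries. mt-Co1 took 29.2% to 30.3% of them, mt-Cytb 14.9% to 15.5%, mt-Nd1 11.7% to 12.7%, mt-Nd2 7.94% to 10.05%, mt-Nd4 5.57% to 6.00% and mt-Nd6 2.97% to 3.66%. mt-Nd5 took 10.4%, 7.56% and 10.5% in WT and 10.2%, 10.1% and 10.1% in GFAP-IL6, so that WT 2 was again apart, on the low side. The ratio of mt-Nd5 to mt-Cytb, which are separate mRNAs of the same strand, was 0.507 in WT 2 and between 0.654 and 0.691 in the other libraries. Of 19 genes with at least 10 counts in every library, 0 had a share that did not overlap between the groups, and the exact permutation p adjusted over the 19 genes was 0.95 or more for each. Without WT 2, the shares of 5 of the 19 genes did not overlap, namely mt-Nd1, mt-Nd4, mt-Nd5, mt-Ti and mt-Tq, and without any other library 1 or 2 did not. With a library left out, groups separate more easily by chance. The share over all genes was not computed for this setting, so no conclusion is drawn from these counts. WT 2 is also the library with the high striatal markers, whose part in these values was not tested.

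tRNAs carry amino acids to the mitochondrial ribosome, and their genes are the shortest of the genome. Of the 22 tRNA genes, 10 had 0 counts in every library. 5 of these lie in the stretch copied on chromosome 1 (mt-Ts1, mt-Td, mt-Tk, mt-Tg and mt-Tr). The other 5 are the tRNA genes that frame mt-Rnr1 (mt-Tf and mt-Tv) and the cluster of 3 between mt-Nd4 and mt-Nd5 (mt-Th, mt-Ts2 and mt-Tl2). No annotated transcript off chrM shares a run of 50 bases with any of the 22 tRNA genes, with or without counts. This measure therefore does not tell the genes inside the stretch from the others. Too low for the filter was mt-Tn, whose WT libraries held 6, 8 and 3 counts and whose GFAP-IL6 libraries held 2, 0 and 1. Outside the stretch, counts were found for 7 of 7 tRNA genes of the minus strand and for 5 of 10 of the plus strand. How counting treated read strand, or reads that reach into a neighbouring gene, is not stated. These counts can therefore not be read as levels of transcription from each strand. The minus strand is that of mt-Nd6, and these 7 took 1529, 3328 and 2486 counts from the WT libraries against 1410, 1102 and 1276 from GFAP-IL6. The plus-strand tRNA genes held fewer, with 441, 701 and 675 counts for WT against 429, 282 and 407 for GFAP-IL6. Each GFAP-IL6 library was smaller, and per library size the groups overlapped, at 133 to 199 CPM in WT and 126 to 146 CPM in GFAP-IL6 for the minus strand (exact permutation p of 0.3) and at 38.4 to 42.4 and 37.2 to 45.4 CPM for the plus strand (exact permutation p of 0.9).

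The tRNA gene with the most counts was mt-Tc, for cysteine, which is separated from mt-Tn by the 32 bases that hold the origin of light-strand replication. The WT libraries held 600, 1735 and 1113 counts of it (52.3, 103 and 69.9 CPM) against 530, 448 and 473 in those of GFAP-IL6 (47.5, 59.2 and 52.8 CPM). WT 2 and 3 were above all GFAP-IL6 libraries, and WT 1 was within their range. The log2 fold change was -0.51 ± 0.19 (edgeR unadjusted p = 0.0189, adjusted p = 0.167). The call depended on the settings, and among others the adjusted p was 0.00350 without the filter on low counts and 0.0158 without WT 1. The log2 fold change shrank to -0.22 without WT 2. mt-Te, the next in counts, is encoded beside mt-Nd6 on the minus strand. It had 43.7, 46.9 and 46.3 CPM in WT and 35.3, 44.2 and 46.1 CPM in GFAP-IL6, with overlapping groups and a log2 fold change of -0.13 ± 0.10.

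The other tested tRNA genes were lower still, and their fold changes had both signs. mt-Tm, mt-Tq, mt-Tw and mt-Tp had mean levels of 19.3, 16.3, 12.2 and 11.96 CPM over the 6 libraries. mt-Ta, mt-Ty, mt-Ti and mt-Tt had 9.11, 4.82, 4.40 and 3.52 CPM, and mt-Tl1 had 1.18 CPM, or 6 to 25 counts. The fitted log2 fold changes of these 9 genes ran from -0.23 for mt-Tl1 to 0.15 for mt-Tq, and the lowest adjusted p among them was 0.724. The widest of their intervals, that of mt-Tl1, ran from -1.07 to 0.61.

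The nuclear genes that maintain and express mtDNA were examined next, in lists taken from general knowledge. Of 130 such genes, all tested, 1 was called, Mrpl20, and it was lower, beside 2.86% of all tested genes (0.209% called lower). Of 18 genes for transcription and replication of mtDNA, 0 were called by edgeR, with 3 at an unadjusted p under 0.05, beside 20.5% of all tested genes, and the median log2 fold change was -0.04. Polg, the replicative polymerase of mtDNA, had 78.6, 70.6 and 76.8 CPM in WT and 87.2, 85.2 and 90.5 CPM in GFAP-IL6 (log2 fold change 0.22 ± 0.08, edgeR adjusted p = 0.163). Polrmt, the RNA polymerase that makes the precursors, had 30.2, 25.4 and 24.9 CPM in WT and 32.6, 32.9 and 30.4 CPM in GFAP-IL6 (0.26 ± 0.10, edgeR adjusted p = 0.187). Tfam, which packs mtDNA and starts its transcription, had 33.4, 39.0 and 35.7 CPM in WT and 31.2, 32.1 and 29.3 CPM in GFAP-IL6 (-0.23 ± 0.09, edgeR adjusted p = 0.199). None of these 3 genes, named for the smallest p of the list, was called. Their groups did not overlap, as for 6 of the 18 genes, beside 26.5% of all tested genes.

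Among 28 genes for the processing and stability of mitochondrial RNA, 0 were called by edgeR, 4 had an unadjusted p under 0.05, where 20.5% of all tested genes did, and the median log2 fold change was -0.07. Grsf1, an RNA-binding protein of mitochondrial RNA granules, had a log2 fold change of -0.25 ± 0.10, and Rexo2, an exonuclease that removes short RNAs, -0.23 ± 0.10. Trmt5, which methylates tRNA, had -0.29 ± 0.12. Of 7 regulators of mitochondrial biogenesis 0 were called by edgeR, and 2 were higher at an unadjusted p under 0.05, beside 11.1% of all tested genes, Nrf1 at 0.30 ± 0.11 and Pprc1 at 0.27 ± 0.12. Ppargc1b, the coactivator PGC-1beta, was at 0.44 ± 0.26. The smallest adjusted p of these 6 genes was 0.171, for Nrf1.

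Of 77 genes named for proteins of the mitochondrial ribosome (Mrpl or Mrps), 72 had a fitted log2 fold change below 0, with a median of -0.20. Over all tested genes 50.6% were below 0, with a median of -0.0038. Of the 77, 1 was called lower, where 0.209% of all tested genes were. Mrpl20, of the large subunit, had 37.6, 47.3 and 38.4 CPM in WT and 29.6, 32.0 and 25.9 CPM in GFAP-IL6. The groups did not overlap, with a log2 fold change of -0.50 ± 0.11 (edgeR adjusted p = 0.0334). This call was lost without any 1 of the GFAP-IL6 libraries, when 0 of the 130 genes were called, beside 1.20% to 1.95% of all tested genes. Without WT 1 there were 6 calls, all lower, beside 2.38% of all tested genes called lower. Mrps14 and Mrps18c of the small subunit were at -0.42 ± 0.13 and -0.59 ± 0.18 (edgeR adjusted p = 0.09998 and 0.105). The groups did not overlap for 25.97% of the 77 genes, near the 26.5% of all tested genes. At an unadjusted p under 0.05, 18 of the 77 were lower, beside 9.37% of all tested genes. The summed level of the 77 genes was 1894.5, 2230 and 1911.6 CPM in WT. In GFAP-IL6 it was 1749, 1837.4 and 1762.2 CPM, below all WT libraries (exact permutation p of 0.1, the smallest possible).

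The nuclear genes for subunits of complexes I to V were examined last. Those of complexes I, III, IV and V have mtDNA-encoded partners. The set also holds the 4 genes of complex II, which has no such partner, and Atpif1, an inhibitor of complex V. Of all 80 genes, 77 had a fitted log2 fold change below 0, with a median of -0.28, and 57 were lower at an unadjusted p under 0.05, beside 9.37% of all tested genes. The groups did not overlap for 73.8% of them, against 26.5% of all tested genes and 1 of 21 mitochondrial genes. With edgeR the adjusted p of 1 was under 0.05, beside 2.86% of all tested genes and 0.209% called lower, that of Ndufa12, an accessory subunit of complex I (log2 fold change -0.48 ± 0.10, edgeR adjusted p = 0.0208). The number called ranged from 0, without any 1 of the GFAP-IL6 libraries, over 2 without WT 2 to 29 without WT 1, all of them lower. Of all tested genes, 2.38% were called lower without WT 1 and 0.316% without WT 2. Without any 1 of the GFAP-IL6 libraries this share was 0.00643% to 0.0449%. The number called also depended on the tool and the filter, with 13 called lower by DESeq2 (0.433% of all genes it tested) and 31 by edgeR without the filter on low counts (1.56% of all genes).

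The summed level of the nuclear subunits was 8703, 10471 and 8776 CPM in WT and 7721, 8038 and 7526 CPM in GFAP-IL6, so that all GFAP-IL6 libraries were below all WT libraries (exact permutation p of 0.1, the smallest possible). The summed level of the mitochondrial mRNAs was 51252, 55574 and 60633 CPM in WT and 48608, 50941 and 54959 CPM in GFAP-IL6, with overlapping groups (exact permutation p of 0.2). The ratio of GFAP-IL6 to WT was 0.833 for the nuclear and 0.923 for the mitochondrial sum. The difference between the genomes was tested on the ratio of both sums in each library, a measure chosen after the values were seen. There were 5.89, 5.31 and 6.91 mitochondrial mRNA counts for each nuclear subunit count in WT and 6.30, 6.34 and 7.30 in GFAP-IL6. WT 3 lay among the GFAP-IL6 libraries and the groups overlapped. The means were 6.04 ± 0.811 and 6.65 ± 0.570 (SD, n = 3 each, exact permutation p of 0.4), and the difference of 0.610 was within the spread of the libraries. It ran from 0.246 without WT 2 to 1.047 without WT 3, when the groups no longer overlapped (exact permutation p of 0.1, which no split of 2 and 3 libraries can go below).

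**Figure D5:**
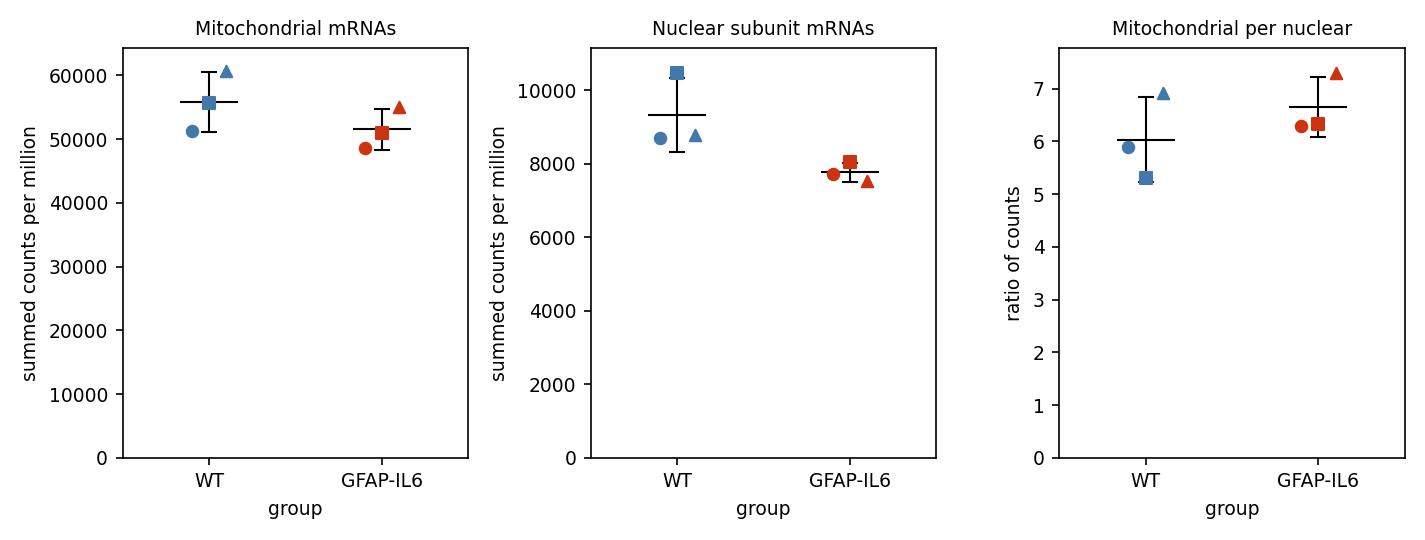
Summed level of the mitochondrial mRNAs (left) and of the 80 nuclear subunit genes (middle) in CPM, and the ratio of both (right), by group, with a point for each library and the mean with its SD (n = 3). All 3 GFAP-IL6 libraries are below the WT libraries in the middle panel only, and the ratio of 5.31 to 6.91 in WT overlaps with 6.30 to 7.30 in GFAP-IL6.

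Finally, the genes whose level followed the mitochondrial share most closely over the 6 libraries were listed, as a description. Of 10352 genes off chrM with a mean over 10 CPM, the Pearson coefficients of log2 CPM with the share were highest for Fam149a (0.993), Csrp1 (0.990), Terf1 (0.986), Pdlim5 (0.986) and Rbm45 (0.983). No p is given, since these are the highest of many coefficients over 6 points. Among the mitochondrial genes, the level of mt-Cytb had a coefficient of 0.988 and mt-Co1 of 0.986, which share their counts with the measure. That of mt-Nd5 was 0.276 and that of mt-Tp was -0.459.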

How the data were processed

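The deposited values were raw counts of 33000 genes in 6 TruSeq libraries from frontal cortex. The authors had aligned the reads to mm10 with STAR (2.4 in the submitters' processing notes) and counted those on annotated genes with featureCounts. The settings for reads with several positions or on either strand are not given in the sources used here for TruSeq libraries. Groups and replicate numbers came from the sample titles, and 0 sample columns were left unused.

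Differential expression was tested on raw counts by the quasi-likelihood test of edgeR 4.0.16 (R 4.3.3), with TMM scaling, the filterByExpr filter and Benjamini-Hochberg adjustment over 15341 genes. The study used DESeq2, and DESeq2 1.42.0 was run as an alternative. CPM were computed with TMM-scaled library sizes, and standard errors were derived from the F statistic. Measures of a library were compared by exact two-sided permutation tests over the libraries. Wilson intervals of shares cover the counting error of reads only, and not the variation between mice. Reads carried no molecular identifiers, so copies of the same molecule were not told apart. Gene positions, lengths and sequences were taken from GENCODE M21 on GRCm38, the assembly of mm10. All 37 mitochondrial genes matched. Pseudogenes were aligned locally to the mitochondrial genes with Biopython 1.88, and the alignments were extended without gaps as far as both sequences reach. Runs of 50 bases were looked up in all annotated transcripts. The edgeR and DESeq2 fits were tested on simulated counts.

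All mitochondrial mRNA and rRNA genes were named, as were tRNA genes with enough counts. From the nuclear lists, genes past an adjusted p of 0.05 and up to 3 with the smallest p were named. The members and lists were chosen with earlier results of these data known. Alternatives were other scalings, no low-count filter, a replicate block and leaving out each library.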

Additional observations from a re-analysis of the deposited data

How the results depend on the processing

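The number of mitochondrial genes called by edgeR was 0 and remained 0 with DESeq2, with the size factors of DESeq2, with scaling without chrM or to the chrM total, and ranged from 0 to 2 when single libraries were left out. It was 1 (mt-Tc) without the filter on low counts. The median log2 fold change of the tested mitochondrial genes, -0.12, became 0.024 with scaling to the chrM total, which by its construction moved the median of all genes to 0.13, and ranged from -0.17 to -0.07 without single libraries. The difference in mitochondrial share ranged from -0.811 to -0.292 points without single libraries, was -0.702 per 100 TMM-scaled nuclear counts, and kept its sign under all 9 alternatives that could change it. That of the rRNA share ranged from -2.01 to 0.270. That of mt-Nd6 per 100 heavy-strand counts ranged from -0.380 to 0.0359, and per 100 counts of mt-Nd5 and mt-Cytb it was -0.661, on a scale with fewer counts in the denominator. The number of genes whose share of mitochondrial counts did not overlap between groups, 0, was 1 (mt-Nd1) without the rRNAs and 1 to 5 without single libraries, when groups separate more easily by chance. Of the nuclear genes for mitochondrial gene expression, 1 was called, 5 without the filter and 0 to 6 without single libraries. Of the nuclear subunit genes, 1 was called, 13 by DESeq2, 31 without the filter and 0 to 29 without single libraries. Over all genes, 1154 rather than 439 were called without the filter, 999 with scaling to the chrM total and 187 to 1061 without single libraries. The cause of these changes was not tested.

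Replicate numbers were shared between groups, but the check of pairing was not met. The correlations of the deviations of same-numbered libraries from their group means were 0.0996, 0.0147 and 0.0211, all above 0 but none over 0.1, and 5 of the 6 other pairs were below 0. WT 1 and WT 3 correlated best with their own number, and WT 2 with GFAP-IL6 3 (0.0524). With the replicate block, edgeR called 750 genes (4.89% of all tested genes), 156 of them (1.02%) as lower. Among those called lower was 1 of 21 mitochondrial genes (mt-Tc, log2 fold change -0.46, edgeR adjusted p = 0.0416). So were 2 of 130 genes for mitochondrial gene expression and 16 of 80 nuclear subunit genes, and none of these sets had a gene called higher. The differences in mitochondrial share (-0.496 points) and rRNA share (-1.20 points) cannot change with pairing, since the mean of paired differences equals the difference of the means.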
